A study of Mus musculus with 9 samples.

Results

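Matrix proteases and their inhibitors were described across immortalised Cebpb-ko MEFs, mouse embryonic fibroblasts of the background C57BL/6 x 129 that lack C/EBPβ. Members were taken by gene symbol, as every Mmp, Timp1 to Timp4, Adam and Adamts or Adamtsl gene in the count table. This rule was set with earlier results of these data known. The rule found 83 of 23337 genes, of which 23 were MMPs, 4 TIMPs, 32 ADAMs, 19 ADAMTS and 5 ADAMTSL genes. The cells had been stably transfected with LAP, the long isoform of C/EBPβ, with LIP, its short isoform, or with the empty vector (EV). Each group had 3 RNA-seq libraries, numbered 1 to 3, so that all 9 libraries share the Cebpb knockout and EV is the control without either isoform. The plasmids carried rat sequence. The labels do not say whether the 3 libraries of a group came from separate cultures, or whether a line was a pool or a clone, so p-values measure the spread between these libraries, which may be technical.

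Matrix metalloproteinases (MMPs) are zinc proteases that fibroblasts secrete or hold at the cell surface to cleave collagens and other matrix proteins. The TIMPs are their inhibitors, and TIMP3 also inhibits several ADAM and ADAMTS enzymes. ADAMs are membrane-bound and shed growth factors and receptors from the cell surface. ADAMTS enzymes are secreted and cut proteoglycans or procollagens, whereas ADAMTSL proteins resemble them but lack the protease domain. LIP shares the DNA-binding domain with LAP but lacks the transactivation domains. Several MMP genes, among them Mmp3, Mmp10 and Mmp13, are known as inducible genes with AP-1 sites close to their start.

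The depth of the libraries ranged from 24839139 to 33522082 reads on genes, of which the 83 members took 0.518% in LIP library 2 and 0.920% in LAP library 1, the lowest and highest shares. Levels are given as CPM, counts divided by the library size after edgeR's TMM scaling over the 9 libraries. A count of 3, the floor used here, stood for 0.0895 to 0.121 CPM, and such floors cover counting error only. Of the 83 members, 7 ADAM genes had 0 counts in every library, and 41 reached a mean of at least 20 counts. These 41 comprised 12 MMPs, 3 TIMPs, 10 ADAMs, 12 ADAMTS and 4 ADAMTSL genes. Most members below that limit are not resolved at this depth, and Timp4 is among them. Across 11535 genes, Pearson's r of log2 CPM between libraries was 0.988 to 0.994 within EV, 0.975 to 0.984 within LAP and 0.966 to 0.976 within LIP. It was as low as 0.959 between an EV and a LIP library. Genes are not independent replicates in these correlations. All 8 fibroblast markers were detected, although Pdgfrb had at most 1.73 CPM in any library. Summed over the list, the markers had 17007 to 30240 CPM in LIP, 35237 to 39697 CPM in EV and 29423 to 43143 CPM in LAP. Col1a1, Col1a2 and Pdgfrb lay below every EV library in LIP, whereas Col3a1, Vim, Thy1, Fn1 and S100a4 overlapped EV. The part of the marker levels in the results below was not tested, and in bulk RNA fewer cells of a type and less RNA per cell cannot be told apart. Pecam1, Ptprc, Itgam and Myod1, which mark endothelial, blood, myeloid and muscle cells, were at 0 in all 9 libraries, while other genes of their lists had reads, such as Kdr with 31 to 90, Tek with 4 to 35, Csf1r with 21 to 76, Cd68 with 68 to 250 and Des with 19 to 63 per library. The epithelial list summed to 577 to 706 CPM in EV, 485 to 986 CPM in LAP and 587 to 1004 CPM in LIP. Of its genes, the keratin Krt8 had 397, 475 and 477 CPM in EV, 432, 387 and 738 CPM in LAP and 587, 502 and 792 CPM in LIP, so that LIP lay above EV. The keratin Krt14 overlapped between all groups. Cdh1 lay below every EV library in LIP, with 3.45, 3.69 and 2.64 CPM in EV and 1.31, 0.786 and 2.45 CPM in LIP. Krt18 lay above EV in LIP, with 1.03, 0.959 and 0.644 CPM in EV and 1.27, 2.39 and 1.55 CPM in LIP. Epcam and Krt5 overlapped between EV and LIP. Mouse Cebpb had 28.7 ± 2.97 CPM in EV, 29.6 ± 3.90 CPM in LAP and 31.1 ± 2.59 CPM in LIP (SD, n = 3 each). Reads of the rat plasmid may or may not be counted there, so these values do not check the groups. EV, which was given neither isoform, had 973, 684 and 1041 reads on this gene, and their source was not tested.

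Relative to exon length, the inhibitors Timp3 and Timp2 stood highest in EV, while Timp1 was at 26.3 CPM per kilobase of exon and Timp4 at the floor. In EV, Timp3 had 566 ± 68.6 CPM per kilobase of exon and Timp2 had 409 ± 98.9 CPM per kilobase (SD, n = 3 each). The gelatinase Mmp2 followed with 207 ± 16.9 CPM per kilobase and the sheddase Adam9 with 197 ± 51.6 CPM per kilobase, and the libraries of this pair overlapped. Adam10, Mmp14 and Adamts1 came next at 110 ± 7.97, 101 ± 5.22 and 96.3 ± 12.6 CPM per kilobase, again with overlapping libraries. Inducible MMPs were far lower, at 3.72 ± 2.47 CPM per kilobase for Mmp13 and 0.565 ± 0.189 CPM per kilobase for Mmp9. Exon lengths are those of the GENCODE M21 annotation on GRCm38, and the length that was counted on may differ.

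**Figure D1:**
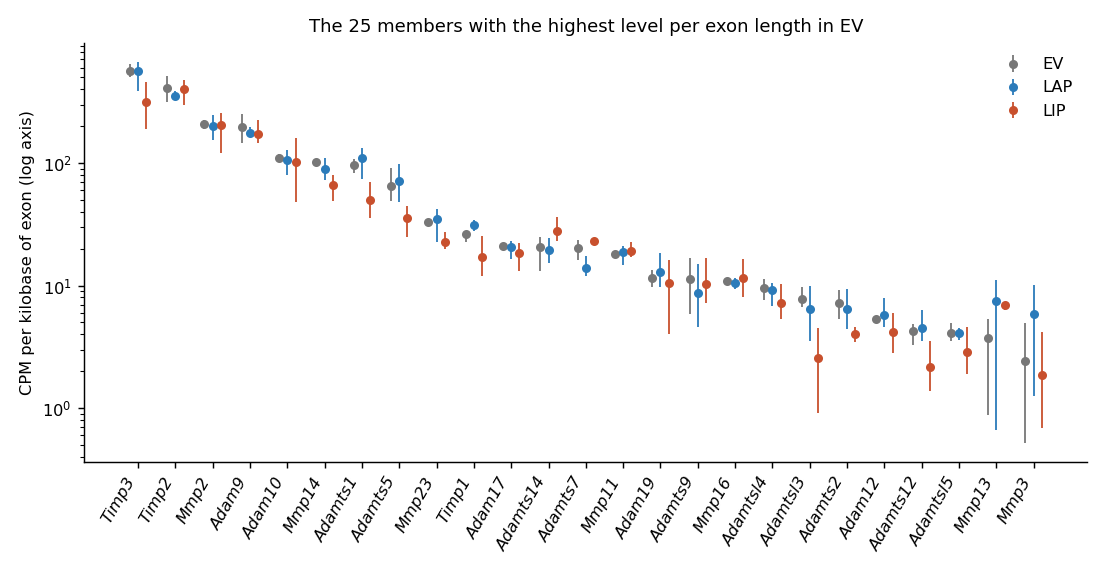
CPM per kilobase of exon (log axis) of the 25 members with the highest level in EV. Points are group means of 3 libraries in EV (grey), LAP (blue) and LIP (orange), and bars run from the lowest to the highest library. Timp3 and Timp2 stand highest in EV at 566 and 409 CPM per kilobase, and the bars of Mmp13 and Mmp3 are among the longest.

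Timp3 alone took 28.8% to 33.4% of all member reads in EV libraries, 27.6% to 34.7% in LAP libraries and 19.1% to 26.5% in LIP libraries. The summed TIMPs had 3565 to 4557 CPM in EV, 3058 to 4490 CPM in LAP and 2018 to 3963 CPM in LIP, and these ranges overlap. The summed ADAMTS genes had 1378 to 1797 CPM in EV, 1196 to 1931 CPM in LAP and 918 to 1216 CPM in LIP, so that LIP lay below every EV library while LIP library 1 lay above LAP library 2. The summed MMPs had 1147 to 1310 CPM in EV, 986 to 1442 CPM in LAP and 712 to 1279 CPM in LIP, with LIP library 2 the lowest of the 9.

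**Figure D2:**
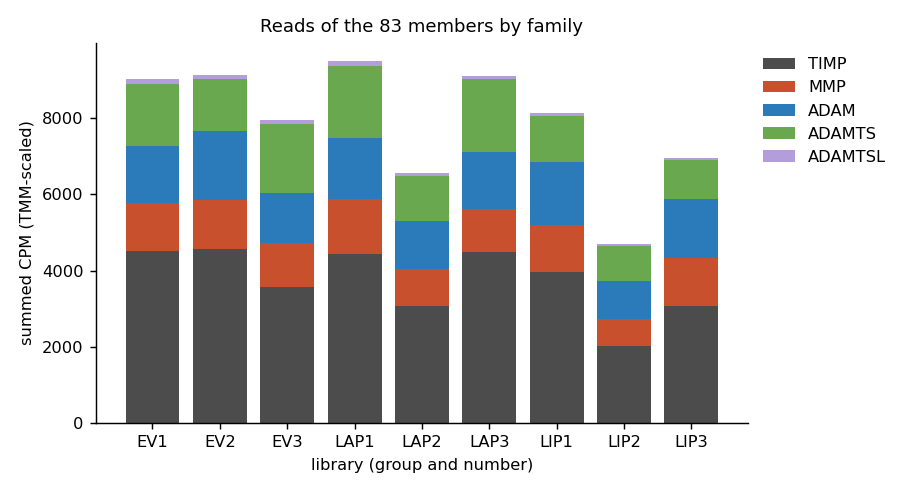
Summed CPM (TMM-scaled) of the 83 members in each of the 9 libraries, stacked by family. LIP library 2 has the shortest bar, and the ADAMTS segment is 918 to 1216 CPM in LIP against 1378 to 1797 CPM in EV.

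In LIP against EV, most members had a lower level in LIP, although 1 passed the adjusted threshold. Of the 41 members with a mean of at least 20 counts, 30 had a lower level in LIP, against 47.9% of all such genes, and their median log2 fold change was -0.17 against 0.01 over all genes. With scaling by total counts alone the split was 25 lower and 16 higher. Before adjustment, 13 of the 41 had a p under 0.05, all of them lower in LIP, where the background was 8.89% lower and 5.3% higher. The groups did not overlap for 12 lower members, against 11.2% of all genes in that direction, and for 1 higher member, against 7.72%. Only Adamtsl1 passed an adjusted p of 0.05, among 75 members tested and a background of 0.33% of genes lower and 0.0659% higher. DESeq2 and the edgeR exact test each called 6 members, all lower: Adamtsl1, Adamtsl3, Adamts1, Adamts2, Adamts4 and Adamts20. The DESeq2 background was 1.82% lower. The count of adjusted calls depended on single libraries, and it was 6 without LIP library 1, 5 without LIP library 3 and 0 without EV library 1, EV library 3 or LIP library 2. The shares of all genes called with a library left out were not determined. These counts therefore describe how the calls depend on libraries and are not a result about the members.

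In LAP against EV, 0 of 74 members passed the adjusted threshold with edgeR's quasi-likelihood test, where the background was 0.033% lower and 0.0275% higher. Before adjustment, p was under 0.05 for Mmp9, which was higher, and for Adamts7, which was lower, against 2.08% of genes higher and 1.41% lower. DESeq2 called 1 member, Mmp9, with a background of 0.0637% higher. The median log2 fold change of the 41 members was -0.05 against 0.00 over all genes. Libraries with the same number deviated together in LAP and EV, and with the number as a block in the model 2 members passed, Mmp9 and Mmp3, both higher. The blocked background was 0.132% higher and 0.165% lower.

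In the direct comparison of the isoforms, LIP against LAP, Adamts20 fell at an adjusted p under 0.05, among 74 members tested and a background of 0.837% lower and 0.209% higher. Of the 41 members, 27 had a lower level in LIP, against 49.3% of genes, with a median log2 fold change of -0.33 against 0.00. Before adjustment, p was under 0.05 for 17 of them, 14 in the lower and 3 in the higher direction, against 7.68% and 3.9% of genes. Libraries of the same number deviated together here too, although the labels do not say whether they were made together. With the number as a block 15 members passed, of which 13 were lower and 2 higher, where the blocked background was 4.79% lower and 1.72% higher. LIP against EV and LIP against LAP share the LIP libraries, and LIP against EV and LAP against EV share the EV libraries, so these counts are not independent of each other.

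**Figure D3:**
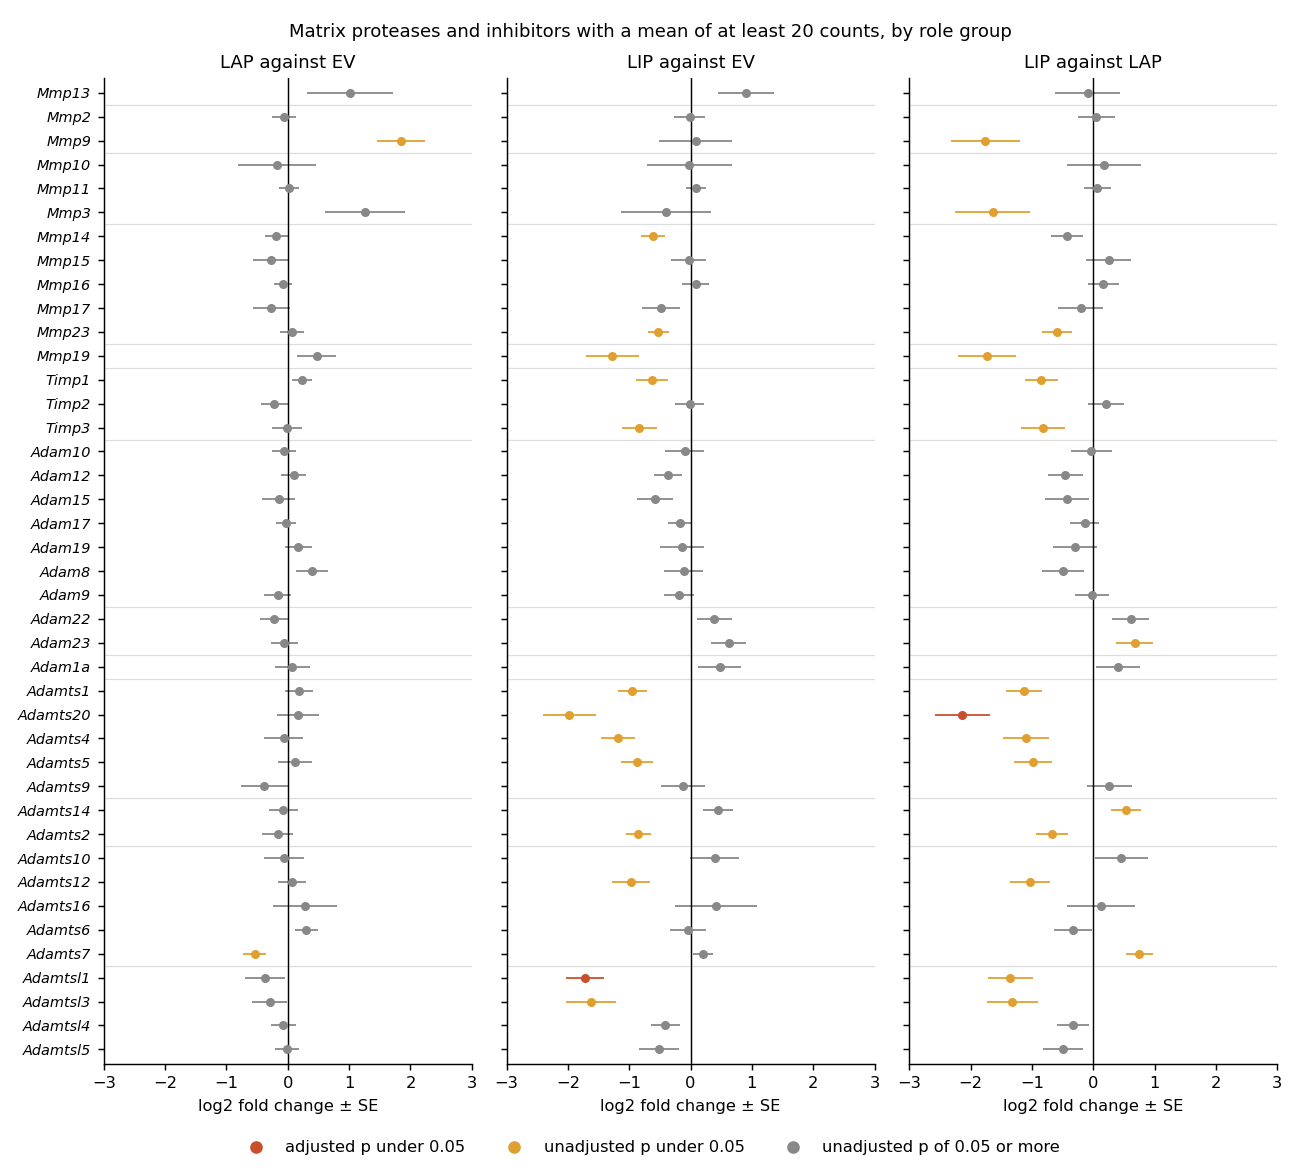
Log2 fold change (x axis, ± SE) of the 41 members with a mean of at least 20 counts, for LAP against EV, LIP against EV and LIP against LAP, with role groups divided by grey lines. Red points have an adjusted p under 0.05 (Adamtsl1 in LIP against EV, Adamts20 in LIP against LAP) and yellow points an unadjusted p under 0.05, which lie to the left of 0 for 13 members in LIP against EV.

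**Figure D4:**
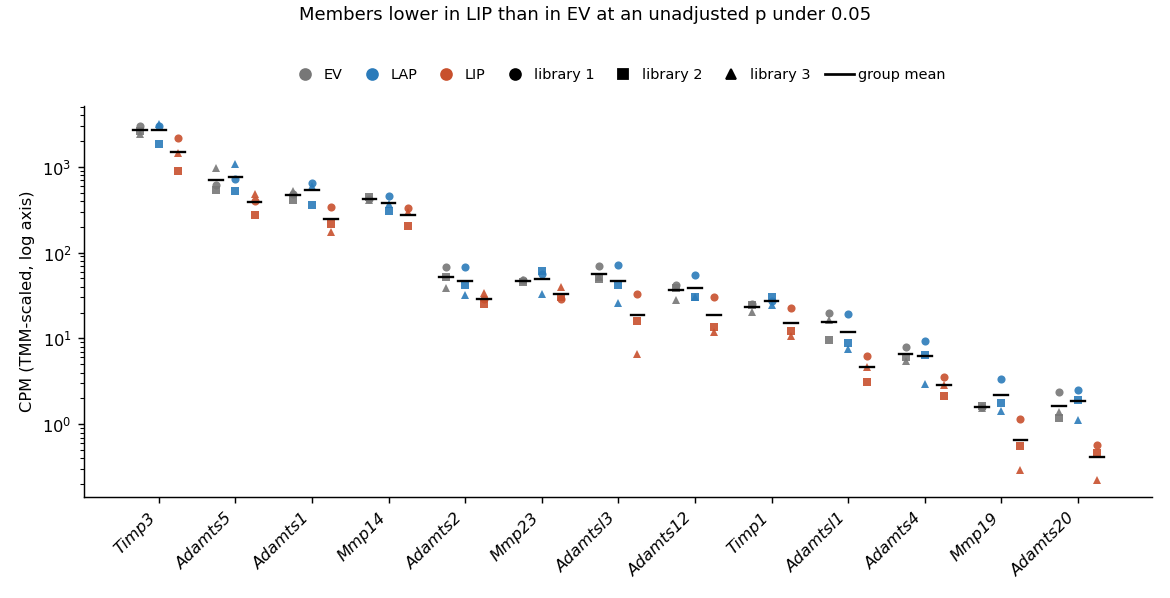
CPM (TMM-scaled, log axis) in each library of the 13 members with an unadjusted p under 0.05 in LIP against EV, in order of mean count. EV is grey, LAP blue and LIP orange, symbols give the library number and lines the group mean. LIP points lie below all EV points for Timp3, Mmp14 and Adamts1, but LIP library 1 lies within the EV range for Timp1 and Adamts12.

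Among the inhibitors, Timp3 and Timp1 had lower means in LIP than in EV, without passing the adjusted threshold, and the means of Timp2 were close. Timp3, which binds to the matrix (chromosome 10, 86300412 to 86349505 in GRCm38.p6), had 3017, 2630.1 and 2374 CPM in EV, 2977, 1817 and 3167 CPM in LAP and 2159, 901 and 1429 CPM in LIP. Every LIP library lay below every EV library, but LIP library 1 lay above LAP library 2. The log2 fold change of Timp3 in LIP against EV was -0.84 (SE 0.285, adjusted p = 0.284), and leaving out single libraries gave -1.19 to -0.58 with adjusted p-values of 0.0487, without LIP library 1, to 0.649. Against LAP it was -0.81 (SE 0.360, adjusted p = 0.478), and with the block -0.86 (adjusted p = 0.00028). Timp1, a secreted inhibitor of most MMPs, had 24.9, 24.8 and 20.3 CPM in EV, 27.6, 30.2 and 24.5 CPM in LAP and 22.3, 12.3 and 10.6 CPM in LIP. Its LIP libraries lay below every LAP library, whereas LIP library 1 fell inside the EV range. The log2 fold change of Timp1 was -0.63 against EV (SE 0.259, adjusted p = 0.395) and -0.85 against LAP (SE 0.272, adjusted p = 0.204), and the blocked value against LAP was -0.92 (adjusted p = 0.000455). Timp2, which inhibits MMPs and also helps MMP14 to activate pro-MMP2, had 1519 ± 367 CPM in EV, 1311 ± 107 CPM in LAP and 1502 ± 353 CPM in LIP (SD, n = 3 each). Its log2 fold change in LIP against EV was -0.02 with an SE of 0.244, and with scaling by total counts the sign changed, at 0.01. Timp4 was at most 3 counts in any library, at the floor.

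The stretch of 100 bases before the annotated start of Timp3 holds no match to any of the 3 motifs searched here. It is shown because Timp3 had the most reads of all members summed over the 9 libraries, although Timp2 had more in LIP libraries 2 and 3. Motifs were searched in windows of RefSeq GRCm38.p6 from 250 bases before to 50 bases after the start. They were an AP-1 motif, TGANTCA, and a C/EBP motif, TTGCNNAA, each on both strands, and a TATA motif, TATAAA, on the gene's strand. The letters of the motifs do not overlap in the sequences printed here. Of 32851 windows, 7.81% held the AP-1 motif, 10.8% the C/EBP motif and 8.32% the TATA motif. A match is a description of letters and not a site.
Timp3 (chr10:86300312-86300411, + strand): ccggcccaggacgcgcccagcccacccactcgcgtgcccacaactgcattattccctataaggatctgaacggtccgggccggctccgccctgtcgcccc

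The membrane-anchored MMPs held 1 of the more abundant proteases, Mmp14, which cleaves fibrillar collagen at the cell surface and activates pro-MMP2. Mmp14 had 418, 449 and 407 CPM in EV, 457, 304 and 366 CPM in LAP and 332, 204 and 294 CPM in LIP. LIP lay below every EV library, at a log2 fold change of -0.62 (SE 0.195, adjusted p = 0.234), but overlapped LAP, at -0.43 (SE 0.261, adjusted p = 0.700). Mmp23, which is anchored by its N-terminus, had 47.9, 45.6 and 47.4 CPM in EV and 28.5, 30.1 and 39.2 CPM in LIP. Those groups did not overlap either, at a log2 fold change of -0.53 (SE 0.168, adjusted p = 0.238), while LAP, at 55.8, 60.7 and 32.7 CPM, overlapped both. Of the 5 membrane-anchored MMPs with enough counts, 2, Mmp14 and Mmp23, were lower at an unadjusted p under 0.05 in LIP against EV. The share of all such genes that were lower at that p was 8.89%. Mmp24 and Mmp25 had too few counts to be resolved.

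Of the secreted gelatinases, Mmp2 was abundant and Mmp9 scarce. Mmp2, the target of Mmp14 and gelatinase A, had 639 ± 52.1 CPM in EV, 615 ± 141 CPM in LAP and 632 ± 229 CPM in LIP (SD, n = 3 each). The spread in LIP was wide, with 745, 369 and 783 CPM, and the log2 fold change against EV was -0.01 with an SE of 0.253, or 0.01 with scaling by total counts. Mmp9, gelatinase B (chromosome 2, 164940326 to 164955850), was scarce in EV, with 72, 55 and 38 reads. LAP libraries held 357, 143 and 89 of its reads and LIP libraries 103, 33 and 15. In CPM these were 2.24, 2.03 and 1.11 in EV, 11.0, 5.14 and 3.29 in LAP and 4.20, 1.08 and 0.484 in LIP. Every LAP library lay above every EV library, and library 1 was the highest in each group. The log2 fold change in LAP against EV was 1.85 (SE 0.393, adjusted p = 0.246), a 3.61-fold higher level, and with the library number as a block it was 1.75 (SE 0.223, adjusted p = 0.000368). DESeq2 gave an adjusted p of 0.0136 without a block. The quasi-likelihood test gave 0.883 with filterByExpr and 0.982 with at least 10 counts in every library. Mmp9 did not pass in a model of all 9 libraries either. The adjusted p of Mmp9 was 0.00419 without EV library 1 and 0.00165 without LAP library 3, but 0.459 to 0.620 without any 1 of the other 4 libraries. Without LAP library 1 its log2 fold change was 1.22. LIP libraries spanned the EV range, at a log2 fold change of 0.08 (SE 0.595, adjusted p = 0.986). Against LAP, Mmp9 in LIP was at -1.76 (SE 0.558, adjusted p = 0.195), and at -2.02 with the block (SE 0.277, adjusted p = 1.34e-08).

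Stromelysins and collagenases lie together with other MMPs in a cluster of 10 member genes on chromosome 9, from 7272514 to 7699585. Only Mmp13, Mmp3 and Mmp10 of the cluster were expressed above 20 counts on average, with 4293, 1636 and 396 counts summed over the 9 libraries. The remaining 7 summed to between 1 and 41 counts each. Stretches before the starts of these 3 genes are shown because their counts vary widely between libraries. Capitals mark, from left to right, a C/EBP match where present, the AP-1 match and the TATA match.
Mmp3 (chr9:7445672-7445821, + strand): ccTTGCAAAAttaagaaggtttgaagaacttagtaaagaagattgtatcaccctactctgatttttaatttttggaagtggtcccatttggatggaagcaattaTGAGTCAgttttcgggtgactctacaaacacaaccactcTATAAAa
Mmp10 (chr9:7502242-7502341, + strand): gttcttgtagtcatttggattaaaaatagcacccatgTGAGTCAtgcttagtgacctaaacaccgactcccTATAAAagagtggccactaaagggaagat
Mmp13 (chr9:7272414-7272513, + strand): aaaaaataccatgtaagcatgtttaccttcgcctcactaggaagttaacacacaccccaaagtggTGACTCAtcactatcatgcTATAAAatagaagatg

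The first base of the AP-1 match lay at position -46 in Mmp3, -63 in Mmp10 and -35 in Mmp13, counted from the annotated start. An AP-1 and a TATA match occurred together in 8 of the 12 windows of the cluster, against 0.995% of all windows. These 8 windows belong to 8 of its 10 genes. Besides these, Adam29 was the 1 other member whose window held both. The C/EBP motif was also found further upstream in Mmp10, at -241, outside the printed stretch, and not in the Mmp13 window. Of all 83 members, 52 had a window, and Mmp9 was not among them.

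Mmp3, stromelysin 1, which cleaves proteoglycans and activates other pro-MMPs, had 286, 90 and 32 reads in EV, 591, 312 and 61 in LAP and 183, 43 and 38 in LIP. Library 1 was highest and library 3 lowest in each group, and every LAP library exceeded the EV library of the same number. The log2 fold change of Mmp3 in LAP against EV was 1.26 (SE 0.652, adjusted p = 0.918) and became 1.33 (SE 0.193, adjusted p = 0.00149) with the block. Without EV library 1 it was 2.31 (adjusted p = 0.0126), without LAP library 1 it was 0.59 (adjusted p = 0.861) and without EV library 3 it was 0.78 (adjusted p = 0.993), and no other left-out library made it pass. In LIP against LAP it was -1.64 (SE 0.611, adjusted p = 0.327), and with the block -1.70 (SE 0.266, adjusted p = 5.4e-07). Mmp10, stromelysin 2, had 80, 53 and 9 reads in EV, 78, 39 and 8 in LAP and 51, 68 and 10 in LIP. It differed more between library numbers than between groups, and its log2 fold changes were -0.18 in LAP against EV and -0.02 in LIP against EV, with SEs of 0.637 and 0.693. Reads could be shared between Mmp3 and Mmp10, which are close paralogs, and how such reads were counted is not stated.

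Mmp13, collagenase 3, which cuts fibrillar collagen, had 423, 388 and 80 reads in EV, 942, 824 and 48 in LAP and 485, 514 and 589 in LIP. In CPM the LIP libraries lay close together, at 19.8, 16.8 and 19.0, above every EV library, whereas LAP libraries stood at 29.0, 29.6 and 1.78. Library 3 was low in EV and LAP but not in LIP. The log2 fold change of Mmp13 was 0.90 in LIP against EV (SE 0.455, adjusted p = 0.508) and 1.01 in LAP against EV (SE 0.701, adjusted p = 0.918). The fitted value in LIP against LAP was -0.09 (SE 0.526, adjusted p = 0.978), and with the block the sign changed, at 0.42 (adjusted p = 0.601). Mmp11, stromelysin 3, which furin activates inside the cell, had 41.6 ± 0.951 CPM in EV, 42.6 ± 7.79 CPM in LAP and 44.0 ± 7.03 CPM in LIP (SD, n = 3 each). Mmp19, a secreted MMP outside these classes, had 51, 44 and 53 reads in EV, 110, 49 and 39 in LAP and 28, 17 and 9 in LIP, without overlap between LIP and either other group. Its log2 fold change was -1.28 against EV (SE 0.432, adjusted p = 0.279) and -1.74 against LAP (SE 0.475, adjusted p = 0.0983), and the blocked value against LAP was -1.77 (adjusted p = 5.6e-05). Of its exon length, 29.0% is shared with genes on the opposite strand, Tmem198b among them, and without a stated strand setting their reads cannot be told apart.

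**Figure D5:**
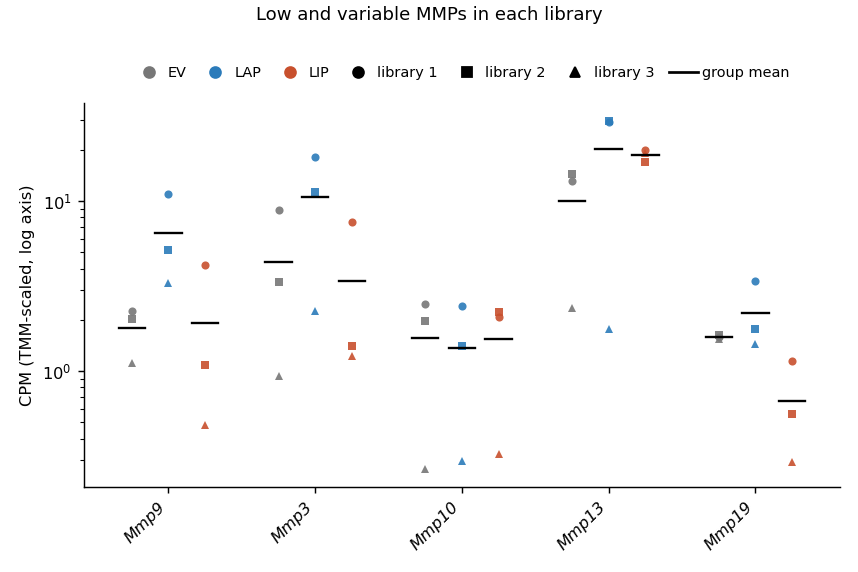
CPM (TMM-scaled, log axis) of Mmp9, Mmp3, Mmp10, Mmp13 and Mmp19 in each library. EV is grey, LAP blue and LIP orange, circles, squares and triangles are libraries 1, 2 and 3, and lines are group means. Library 3 is lowest in every group for Mmp9, Mmp3 and Mmp10, and Mmp13 in LIP stays between 16.8 and 19.8 CPM.

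The hyalectanases, ADAMTS enzymes that cleave aggrecan and versican, held the most members with an unadjusted p under 0.05 and a lower level in LIP. Of its 5 members with enough counts, 4 met this against EV and 4 against LAP, where the shares of all such genes are 8.89% and 7.68%, with a median log2 fold change of -0.95 against EV. Adamts1 (chromosome 16, 85793827 to 85803113) had 477, 405 and 528 CPM in EV, 652, 361 and 600.3 CPM in LAP and 340.4, 217 and 174 CPM in LIP. All LIP libraries lay below all others, at a log2 fold change of -0.95 against EV (SE 0.234, adjusted p = 0.115) and -1.13 against LAP (SE 0.300, adjusted p = 0.0848). With the block the value against LAP had an adjusted p of 1.93e-06. Adamts1 was the 1 gene of the 9 lower members with a window that held a TATA match, shown in capitals in the 100 bases before its start, and its window had 0 AP-1 and 0 C/EBP matches.
Adamts1 (chr16:85803114-85803213, - strand): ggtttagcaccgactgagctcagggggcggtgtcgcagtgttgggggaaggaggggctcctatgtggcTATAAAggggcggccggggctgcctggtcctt

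Adamts5, the main aggrecanase of mouse cartilage, had 613, 531 and 974 CPM in EV, 728, 517 and 1063 CPM in LAP and 399.5, 271 and 484 CPM in LIP. The libraries were ordered 3, 1, 2 in each group, and LIP lay below all others. Its log2 fold change was -0.88 against EV (SE 0.263, adjusted p = 0.205) and -0.99 against LAP (SE 0.309, adjusted p = 0.185, or 2.87e-05 with the block). Adamts4, a second aggrecanase, had 7.96, 6.02 and 5.51 CPM in EV, 9.40, 6.32 and 2.92 CPM in LAP and 3.59, 2.16 and 2.84 CPM in LIP. LIP did not overlap EV, at -1.18 (SE 0.273, adjusted p = 0.0951), but overlapped LAP library 3, at -1.10 (SE 0.375, adjusted p = 0.253, or 0.00707 with the block). Adamts9, a versican-cleaving enzyme, was the exception, at 90.3 ± 43.2 CPM in EV, 69.7 ± 44.5 CPM in LAP and 82.9 ± 43.9 CPM in LIP (SD, n = 3 each), with library 1 the highest in each group.

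Adamts20, which cleaves versican along the path of migrating melanoblasts, was rare in these cells. The gene (chromosome 15, 94268314 to 94432074) had 76, 32 and 47 reads in EV, 82, 53 and 30 in LAP and 14, 14 and 7 in LIP. No LIP library reached the lowest library of the other groups. In LIP against LAP the level fell by 2.13 on the log2 scale (SE 0.454, adjusted p = 0.0277), from 1.85 ± 0.711 to 0.419 ± 0.176 CPM (SD, n = 3 each), a 4.39-fold lower level. The call rested on single libraries, with an adjusted p of 0.0973 without LAP library 1, 0.142 without LAP library 2 and 0.0585 without LIP library 1. It was also lost with edgeR's filterByExpr, at 0.166. Against EV the log2 fold change of Adamts20 was -1.98 (SE 0.432, adjusted p = 0.0788), and DESeq2 and the exact test passed it there.

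The procollagen N-proteinases, which trim the N-propeptides of fibrillar procollagens, differed in direction. Adamts2 had 67.0, 51.7 and 39 CPM in EV, 67.8, 41.4 and 32.2 CPM in LAP and 28.7, 25.2 and 33.6 CPM in LIP. LIP was below all EV libraries, at a log2 fold change of -0.85 (SE 0.206, adjusted p = 0.109), but not below LAP library 3, at -0.68 (SE 0.259, adjusted p = 0.349, or 0.0292 with the block). Adamts14 had 129, 122 and 68.3 CPM in EV, 127, 99.4 and 80.0 CPM in LAP and 129, 188 and 120.3 CPM in LIP. Its value in LIP against LAP was 0.53 (SE 0.241, adjusted p = 0.498, or 0.0582 with the block), with overlapping libraries. Adamts3 had at most 6 counts in any library.

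Among the other ADAMTS enzymes, Adamts12 and Adamts7, which are both known to cleave cartilage oligomeric matrix protein, differed in direction. Adamts12 had 41.7, 38.8 and 28.2 CPM in EV, 54.1, 30 and 30.7 CPM in LAP and 30.4, 13.4 and 11.9 CPM in LIP. LIP library 1 lay within the range of EV, and the log2 fold change was -0.97 (SE 0.309, adjusted p = 0.238). Against LAP it was -1.03 (SE 0.323, adjusted p = 0.185, or 4.52e-06 with the block). Adamts7 had 135, 120.3 and 92.1 CPM in EV, 101, 69.2 and 70.2 CPM in LAP and 137, 126 and 137 CPM in LIP. LIP lay above every LAP library, at 0.75 (SE 0.222, adjusted p = 0.143), and with the block the value was 0.78 (SE 0.176, adjusted p = 0.000995). In LAP against EV it was -0.54 (SE 0.193, adjusted p = 0.918) with overlapping libraries, and in LIP against EV 0.20 (SE 0.168, adjusted p = 0.706). Adamts6, Adamts10 and Adamts16 had an unadjusted p of 0.05 or more in all 3 comparisons.

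Adamtsl1, also named punctin, is a secreted matrix protein without protease activity and was the member that passed the threshold in LIP against EV. The gene (chromosome 4, 85513852 to 86428390) had 641, 259 and 563 reads in EV, 627, 249 and 204 in LAP and 152, 94 and 145 in LIP. Every LIP library was below every EV and LAP library, while LAP library 1 was as high as EV library 1 and LAP libraries 2 and 3 lay below the lowest EV library in CPM. The level fell by 1.72 on the log2 scale in LIP against EV (SE 0.314, adjusted p = 0.0397), from 15.3 ± 5.29 to 4.66 ± 1.56 CPM (SD, n = 3 each), a 3.30-fold lower level. Its exact permutation p was 0.1, the smallest that 3 libraries against 3 allow. The adjusted p was 0.0761 without EV library 1, 0.0587 without EV library 3 and 0.106 without LIP library 2. It was also above the threshold with scaling by total counts, at 0.0670, with filterByExpr, at 0.155, with at least 10 counts in every library, at 0.198, and with no filter, at 0.0509. Against LAP the log2 fold change of Adamtsl1 was -1.35 (SE 0.360, adjusted p = 0.0857), and with the block -1.27 (SE 0.232, adjusted p = 1.87e-05).

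Adamtsl3, its close relative, had 70.6, 48.7 and 51.6 CPM in EV, 72.5, 41.7 and 25.8 CPM in LAP and 32.9, 16.1 and 6.59 CPM in LIP. The lowest EV library stood above the highest LIP library, at a log2 fold change of -1.63 (SE 0.410, adjusted p = 0.121), whereas LIP library 1 overlapped LAP, at -1.32 (SE 0.415, adjusted p = 0.187, or 1.85e-09 with the block). The 2 other ADAMTSL genes with enough counts, Adamtsl4 and Adamtsl5, were at -0.41 and -0.51 in LIP against EV, with SEs of 0.242 and 0.320. Thus 4 of 4 ADAMTSL genes lay below 0 in that comparison, and 2 of them had an unadjusted p under 0.05, where 47.9% of all such genes lay below 0 and 8.89% were lower at that p.

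Few ADAMs differed between groups. All 7 sheddase-type ADAMs with enough counts had log2 fold changes between -0.58 and -0.10 in LIP against EV, and 0 of them had an unadjusted p under 0.05 in any comparison. Adam10, a sheddase of Notch and other receptors, had 469.8, 543 and 500.2 CPM in EV and 459, 222 and 735 CPM in LIP, so that LIP libraries lay on both sides of EV. Adam17, the TNF-alpha converting enzyme, had 92.9, 98.9 and 90.1 CPM in EV and 101, 59.4 and 89.5 CPM in LIP. Adam15 was the sheddase with the smallest p in LIP against EV, with 72, 51 and 88 reads in EV, 43, 36 and 48 in LIP and a log2 fold change of -0.58 (SE 0.297, adjusted p = 0.514). Of its exon length, 24.7% is shared with genes on the opposite strand. Adam8 had the smallest p of the sheddases in LAP against EV, at 6.40 ± 1.47 CPM in EV and 8.48 ± 2.80 CPM in LAP. Adam12 had the smallest in LIP against LAP, at 44.2 ± 14.5 CPM in LAP and 32.0 ± 12.6 CPM in LIP (SD, n = 3 each). The libraries overlapped for both genes. Adam22 and Adam23, receptors for LGI proteins that lack protease activity, both had fold changes above 0 in LIP, and Adam22 was at 0.61 against LAP (SE 0.301, adjusted p = 0.560). Adam23 had 10.8, 12.7 and 16.0 CPM in EV, 13.6, 9.31 and 15.3 CPM in LAP and 16.9, 13.1 and 30.6 CPM in LIP. LIP library 3 was far above the others, and the log2 fold change in LIP against LAP was 0.68 (SE 0.303, adjusted p = 0.485), or 0.62 with the block (SE 0.200, adjusted p = 0.0400).

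Other genes of matrix proteolysis, in a list of 47 genes of the plasminogen system, surface regulators of MMPs, convertases, procollagen processing, cathepsins and further surface and secreted proteases, of which 46 were in the table, lay mostly below 0 in LIP. Of the 31 with a mean of at least 20 counts, 27 lay below 0 in LIP against EV, with a median log2 fold change of -0.55 against 0.01 over all genes, and 14 had an unadjusted p under 0.05, all lower, where the shares of all such genes are those given above. None of these 31 passed the adjusted threshold with edgeR's quasi-likelihood test, and DESeq2 called 3 of the list, all lower. The list was chosen with earlier results of these data known, so its shares describe the list and are not independent support. In LIP against LAP, 28 of 31 lay below 0 with a median of -0.48, against 49.3% and 0.00 over all such genes. At an unadjusted p under 0.05, 11 were lower, against 7.68% of all such genes. In LAP against EV, 16 lay below 0 and 15 above it, where 49.6% of all such genes lay below 0. Fap, which was higher, was the 1 gene with an unadjusted p under 0.05, where 2.08% of all such genes were higher. Cathepsin K (Ctsk), a lysosomal protease that degrades collagen, had 24.2, 24.7 and 16.7 CPM in EV, 32.3, 42.0 and 9.40 CPM in LAP and 10.5, 5.18 and 3.04 CPM in LIP. Its LIP libraries lay below those of EV, and LIP library 1 just above LAP library 3. The log2 fold change of Ctsk was -1.81 against EV (SE 0.364, adjusted p = 0.0586) and -2.13 against LAP (SE 0.442, adjusted p = 0.0255). The call against LAP was lost without LAP library 2 (adjusted p = 0.244) or LIP library 2 (adjusted p = 0.0720), and with filterByExpr or at least 10 counts in every library (adjusted p = 0.229 and 0.289). Fap, a surface serine protease of activated fibroblasts, had 6.07, 3.21 and 2.58 CPM in EV, 13.3, 9.31 and 3.40 CPM in LAP and 3.06, 1.11 and 0.711 CPM in LIP. It fell by 2.41 on the log2 scale in LIP against LAP (SE 0.492, adjusted p = 0.0244), and this call was lost without LAP library 2 (adjusted p = 0.150) or LIP library 2 (adjusted p = 0.0713), and with the same filters (adjusted p = 0.212 and 0.270). In LAP against EV it was at 1.12 (SE 0.405, adjusted p = 0.918), and with the block at 1.03 (SE 0.206, adjusted p = 0.0316). With the block, 12 genes of the list passed in LIP against LAP, all lower, in place of the 2 without it, while the share of all genes called lower was 4.79% with the block and 0.837% without it. Cathepsin B (Ctsb) and the procollagen C-proteinase enhancer Pcolce were at -1.0 and -1.01 in LIP against EV, with adjusted p-values of 0.112 and 0.118, and both groups of libraries stood apart. Plat, of the plasminogen system, had 69.9, 66.4 and 55.3 CPM in EV, 95.9, 79.7 and 46.5 CPM in LAP and 45.3, 18.9 and 35.5 CPM in LIP. Its log2 fold change in LIP against LAP was -1.14 (SE 0.296, adjusted p = 0.0759), and with the block -1.16 (adjusted p = 2.81e-06).

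Of the 13 members lower in LIP against EV at an unadjusted p under 0.05, 9 had a promoter window: Adamts1, Adamts2, Adamts12, Adamts20, Adamtsl3, Mmp14, Mmp23, Timp1 and Timp3. None of their 10 windows held the AP-1 or the C/EBP motif, against 7.81% and 10.8% of all windows. Of all 57 member windows, 12 held the AP-1 motif, 10 the C/EBP motif and 12 the TATA motif. Such windows are few, and letters absent from such a window say nothing about the factors that bind elsewhere.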

How the data were processed

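Total RNA of 9 libraries was sequenced on a HiSeq2500 after TruSeq preparation. The authors aligned the reads with TopHat 1.4.1 to mm10, counted them per RefSeq gene with HTSeq 0.5.4 and deposited raw counts without normalization. The submitters' processing notes also name GRCh38 and bcl2fastq 1.8.3. The strand setting and the handling of multiply aligned reads are not given in the sources used here. Columns were assigned by their labels, with 0 left unused.

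Only the 6 libraries of the groups compared entered a test, with every gene that had 1 count or more among them. The quasi-likelihood test of edgeR 4.0.16 (R 4.3.3) was run on these counts after TMM scaling, with Benjamini-Hochberg adjustment over all genes tested and a threshold of 0.05. The SE was taken from the fold change and the F value of that test. For single genes an exact permutation test of CPM, two-sided, was run as well, where 3 libraries against 3 cannot go below a p of 0.1. The script was tested on simulated data. Same-numbered libraries deviated together, with r of 0.210 to 0.524 in LAP against EV and 0.413 to 0.558 in LIP against LAP, all above 0.1, so the number was also used as a block there. In LIP against EV this was not so. The pairing comes from the numbers in the labels and from this check alone.

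Named were members past the adjusted threshold, Mmp2, Mmp14 and the TIMPs, the member with the smallest p in each role group, up to 8 lower and 8 higher members per comparison at an unadjusted p under 0.05, and up to 3 lower and 3 higher genes of the proteolysis list. Other members, such as Mmp10, Mmp11, Adam10 and Adam17, were added after their values were seen. Members, lists and rules were chosen with earlier results of these data known. As alternatives, DESeq2 1.42.0, the exact test of edgeR, both together, DESeq2 size factors, total counts, 3 other filters, a model of all 9 libraries, the block and leaving out each library were tried. Positions, exon lengths and windows come from RefSeq and GENCODE M21 on GRCm38.p6. Figures used matplotlib 3.10.9 under Python 3.11.15.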

Additional observations from a re-analysis of the deposited data

How the results depend on the processing

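Among 1036 values of single genes under an alternative, 896 kept their direction and side of the threshold, 94 passed only under the alternative, 19 no longer passed and 27 changed sign. The number of members past the adjusted threshold in LIP against EV, 1 in the main test, was 0 with total counts, filterByExpr, at least 10 counts in every library or no filter. It was 6 with DESeq2, the edgeR exact test or both together, 2 with all 9 libraries in a single model, and 0 to 6 with a library left out. In LAP against EV, 0 in the main test, it was 1 with DESeq2, the exact test or both, 2 with the block and 0 to 2 with a library left out, of which 2 without EV library 1 and 1 without LAP library 3. At an unadjusted p the 2 members became 8 with the block and 2 to 7 with a library left out, of which 7 without LAP library 1 and 6 without LAP library 3. In LIP against LAP, 1 in the main test, it was 0 with filterByExpr or at least 10 counts in every library, 3 with DESeq2, 2 with the exact test, both tests or all 9 libraries, and 15 with the block. With a library left out it was 0 to 8, of which 0 without LAP library 1 or 2, 8 without LAP library 3, 3 without LIP library 1 and 6 without LIP library 3. Over all 74 members tested there, 18 had an unadjusted p under 0.05 (17 of them among the 41 with enough counts), which became 11 with at least 10 counts in every library and 15 to 18 with a library left out. Such filters test fewer members. In LIP against LAP, DESeq2 called 1.42% of all genes lower and 0.409% higher, and the block 4.79% lower and 1.72% higher. Shares of all genes were not determined for fits with a library left out or other filters. The same holds for the exact test, the model of all 9 libraries and unadjusted calls with the block. Counts without such a share are not a result about the members. Causes were not tested otherwise. The median in LIP against EV ranged from -0.41, without LIP library 1, to -0.13 with a library left out.

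For LIP against EV, libraries share only a number (r of 0.290, -0.121 and 0.231), and with the replicate block 8 members passed in place of 1, against 2.21% of genes lower, with Mmp9 turning to -0.32. With the replicate block, Mmp13 in LIP against LAP turned to 0.42. With total counts, Mmp2 and Timp2 in LIP against EV turned to 0.00682 and 0.015. With a library left out, log2 fold changes that changed sign ranged in LIP against EV from -0.19 to 0.25 for Mmp2, -0.17 to 0.19 for Timp2, -1.18 to 0.55 for Mmp9 and -1.72 to 0.67 for Mmp3. In LAP against EV they ranged from -0.38 to 0.0028 for Adam22, -0.53 to 0.043 for Adamts2, -1.04 to 0.0094 for Adamts9, -0.17 to 0.20 for Timp3, -0.11 to 0.24 for Adam1a, -0.0033 to 0.69 for Mmp19 and -0.24 to 0.11 for Mmp2. In LIP against LAP they ranged from -0.60 to 0.30 for Mmp13 and -0.13 to 0.32 for Mmp2. With 3 libraries a group, of which 1 can decide a call, members near the threshold cannot be separated into called and not called, and most members under 20 counts are not resolved at this depth.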
